A study of Mus musculus with 12 samples.

Results

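The genes examined were the laminin chains Lama1, Lama2, Lama4, Lama5, Lamb1, Lamb2, Lamc1 and Lamc3, and the nidogens Nid1 and Nid2. These 10 genes were chosen by name from the 43280 genes of the count table as members of the laminin and nidogen families. The epithelial chains Lama3 and Lamb3 were not among them and serve below only for comparison. Cells were taken at embryonic day 15 from the submandibular gland, a salivary gland, of mice of the strain Tg(KRT5-Venus)1Sgkd, in which a transgene named for keratin 5 (K5) carries the Venus fluorescent protein. Fluorescence-activated sorting took E-cadherin-positive cells and divided them by the receptor Kit and by Venus into 4 populations: Kit+ K5+ (double-positive), Kit+ K5- (Kit-only), Kit- K5+ (K5-only) and Kit- K5- (double-negative). Each population had 3 RNA-seq libraries, 12 in all, with 5589037 to 13724364 counted reads per library, and every population carried the transgene strain and was labelled E-cadherin-positive epithelium. The labels do not say whether replicate libraries came from separate litters or sorts, so p-values measure the spread between these libraries, which may be technical.

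Laminins are the sheet-forming proteins of the basement membrane, and each is a trimer of an alpha, a beta and a gamma chain. The alpha chain carries the sites for cell-surface integrins and dystroglycan, the gamma chain encoded by Lamc1 carries the site where nidogens bind, and nidogens bridge the laminin sheet to collagen IV and perlecan. In branching salivary glands the epithelial buds rest on such a membrane, and both the epithelium and the surrounding mesenchyme are known to contribute its parts. The question put to these genes was how their transcripts are divided between the epithelial populations and cells of mesenchymal character.

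The sorting markers were checked first. Kit transcripts were at 319 ± 15.9 CPM (counted reads scaled to a common library size; SD, n = 3) in double-positive and 343 ± 89.5 in Kit-only cells, and at 22.4 ± 6.22 and 14.7 ± 5.25 in K5-only and double-negative cells. Krt5 had 18.9 ± 4.86 CPM in K5-only against 4.199 ± 3.17 in double-negative cells, but within the Kit+ cells its libraries overlapped, at 1.57 to 9.93 CPM with K5 and 0.317 to 4.63 without. Cdh1, which encodes E-cadherin, was lowest in double-negative cells at 173 ± 24.4 CPM, against 587 ± 64.3 to 800 ± 293 in the other populations. A list of 16 mesenchyme genes summed to 12920 to 21658 CPM in the double-negative libraries and to 623 to 1230 CPM in the other 9, with none of its genes at 0 in double-negative cells and at most 2 elsewhere. A list of 20 general epithelial genes summed to 502 to 643 CPM in double-negative libraries and 1706 to 3503 CPM elsewhere. The population labelled double-negative therefore held mesenchymal transcripts at high level beside lower epithelial ones, and every difference from it below runs alongside those 2 lists. In bulk samples, fewer cells of a type and less RNA per cell cannot be told apart. Endothelial (53.5 to 68.2 CPM), glial (432 to 558 CPM), leukocyte (192 to 1013 CPM) and neuron (67.2 to 173 CPM) lists were also at their highest mean in double-negative cells. So were pericyte and smooth muscle genes (511 to 866 CPM), of which 6, 5 and 5 of 8 were called lower in K5-only, Kit-only and double-positive cells, and 2, 0 and 0 higher. Their sum reached 776 CPM in replicate 1 of K5-only, against 166 and 100.4 in its other libraries. Mast cell genes reached 4954 CPM in replicate 1 of Kit-only, against 140 and 222 in its other libraries. Skeletal muscle genes had their highest mean in K5-only cells (97.0 ± 6.32 CPM) and their lowest in double-negative cells (62.9 ± 22.8 CPM). Only 3 of these 7 genes passed the filter on low counts. Of those, 1, 1 and 2 were called lower in K5-only, Kit-only and double-positive cells than in double-negative cells, and 0 higher. The part of these lists in the results was not tested. Mitochondrial genes took 5.59%, 9.40% and 12.2% of counts in the double-negative libraries and 10.96% to 30.9% in the others, and the double-negative share was the lowest in each run of 4 consecutive library numbers. Without mitochondrial genes the number of the 10 genes called was the same in every comparison.

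The 10 genes differed in pattern. Nid1, Nid2, Lama2 and Lamc3 were far higher in double-negative cells than in any other population. Lamb2 was higher there by a smaller factor against all 3, and Lamb1 against 2 of them. Lama4 had values in the same direction that did not pass in the reported fit but passed in some alternatives given below. Lama5 ran the opposite way, and Lama1 and Lamc1 did not pass the test in any comparison. Across all 3 comparisons with double-negative cells, which share those 3 libraries, 5 of 10 genes were lower and 1 was higher in K5-only cells, and 6 were lower and 1 was higher in both Kit-only and double-positive cells (edgeR quasi-likelihood test, Benjamini-Hochberg adjusted p below 0.05). Over the 17030 genes tested, the shares called lower were 9.1%, 11.1% and 14.5%, and those called higher 7.38%, 10.2% and 12.2%, in the same order, which makes 16.5%, 21.3% and 26.7% in all. All 10 genes passed the filter on low counts, but Lamc3 passed it only through its level in double-negative cells and had to differ from the rest. Its calls are among those counted as lower in all 3 comparisons and are no independent evidence. The median log2 difference of the 10 genes was -1.12, -1.58 and -1.48 in these comparisons, where that of all genes tested was 0.04, 0.05 and -0.04.

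**Figure D1:**
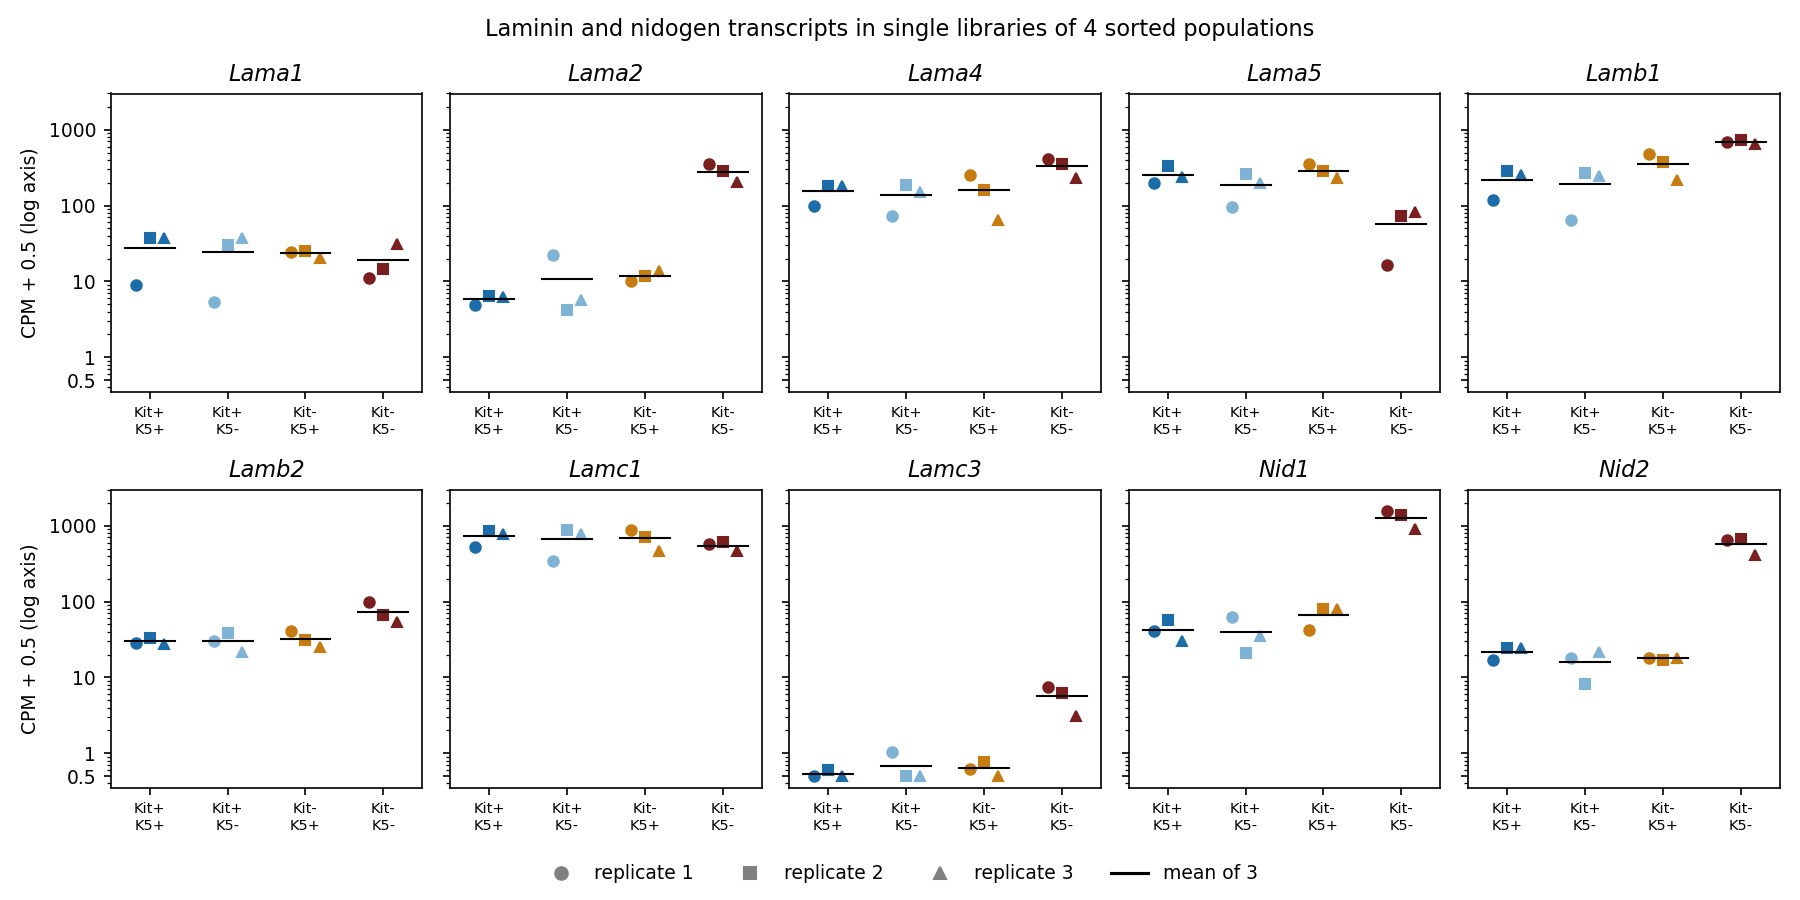
Level of each gene in the 12 libraries, as CPM plus 0.5 on a log axis shared by all panels. Each point is a library, its shape gives the replicate and the line the mean of 3; the double-negative (Kit- K5-) points of Nid1, Nid2, Lama2 and Lamc3 stand far above the rest, and those of Lama5 lie below.

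Promoters of Nid1, the more abundant nidogen, and of Lama5, the gene called in the opposite direction, are shown for context, chosen after their values were seen. Sequences are from RefSeq (mouse build GRCm38.p6), which held 5 of the 10 genes (Lama2, Lama5, Lamb1, Lamb2 and Nid1). The window of Nid1 lies on chr13:13437352-13437550, plus strand, and that of Lama5 on chr2:180225860-180226109, minus strand. Each ends where the first exon of the annotated gene begins, and both are upstream of the transcript. Capitals mark matches, on either strand, to a GC box (GGGCGG), an E-box (CACCTG) or a CCAAT box (CCAAT).
Nid1: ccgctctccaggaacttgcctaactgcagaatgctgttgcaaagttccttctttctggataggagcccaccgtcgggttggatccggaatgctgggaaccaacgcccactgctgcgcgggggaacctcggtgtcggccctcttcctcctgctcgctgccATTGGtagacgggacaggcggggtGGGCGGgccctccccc
Lama5: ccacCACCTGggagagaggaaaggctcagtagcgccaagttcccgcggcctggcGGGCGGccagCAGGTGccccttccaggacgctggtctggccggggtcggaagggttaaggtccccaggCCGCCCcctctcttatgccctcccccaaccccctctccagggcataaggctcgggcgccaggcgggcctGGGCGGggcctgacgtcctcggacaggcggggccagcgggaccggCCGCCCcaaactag
The Lama5 window held 4 GC boxes and 2 E-boxes, and the Nid1 window 1 GC box and 1 CCAAT box. Neither held TATAAA. The Lama5 window has 250 bases, and of 32851 RefSeq promoter windows of that length 32.7% held a GC box, 17.2% this E-box, 33.9% a CCAAT box and 12.4% TATAAA. The Nid1 window has 199 bases, and with every window shortened to its first 199 bases the shares were 24.4%, 14.4%, 28.2% and 9.11%. That cut removed the end of each window nearest its RefSeq start, whereas the Nid1 window ends at its annotated first exon. These matches describe the letters of the windows and say nothing of what binds there.

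Nid1, the major nidogen (chromosome 13, 13437551-13512269, plus strand, GRCm38), had 1565, 1363 and 894 CPM in the 3 double-negative libraries. It had 41.1, 79.7 and 79.8 CPM in K5-only, 62.8, 20.4 and 35.1 CPM in Kit-only, and 40.5, 55.9 and 29.7 CPM in double-positive libraries. The lowest double-negative library was thus above every other library, while the other 3 populations overlapped. Such a separation from double-negative cells was seen in 37.1%, 41.3% and 46% of all genes tested, for K5-only, Kit-only and double-positive cells. Nid1 was 19.1-fold lower in K5-only than in double-negative cells (log2 -4.25 ± 0.43, SE; adjusted p = 2.63e-05), 32.3-fold lower in Kit-only cells (log2 -5.01 ± 0.45; adjusted p = 5.25e-06) and 30.3-fold lower in double-positive cells (log2 -4.92 ± 0.45; adjusted p = 6.61e-06).

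Nid2, the second nidogen (chromosome 14, 19751265-19811787, plus strand), had 641, 675 and 412 CPM in double-negative libraries. It was at 17.5, 16.6 and 17.6 CPM in K5-only, 17.4, 7.58 and 21.3 CPM in Kit-only, and 16.2, 24.0 and 23.8 CPM in double-positive libraries. Again the double-negative libraries stood apart and the others overlapped. The log2 differences from double-negative cells were -5.06 ± 0.36 (adjusted p = 2.91e-06), -5.23 ± 0.37 (adjusted p = 1.32e-06) and -4.76 ± 0.36 (adjusted p = 2.14e-06) for K5-only, Kit-only and double-positive cells. The exons of Nid2 share 437 bases with those of Rtraf, and those of Nid1 143 bases with the predicted gene Gm48682, each on the opposite strand. The sources used here do not say whether reads were assigned by strand.

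Lama2, the alpha chain best known from muscle and peripheral nerve (chromosome 10, 26980036-27619758, minus strand), followed the nidogens. Its double-negative libraries had 354, 282 and 203 CPM, against 9.63, 11.3 and 13.0 CPM in K5-only, 21.7, 3.69 and 5.10 CPM in Kit-only, and 4.43, 5.88 and 5.68 CPM in double-positive libraries. The 21.7 CPM belonged to replicate 1 of Kit-only, and the other 2 libraries of that population lay within or below the double-positive range. Replicate 1 had the highest mast cell sum, and within Kit-only the highest sum of every other cell type list except skeletal muscle. Its sums were 165 CPM for glial genes (61.1 and 49.5 in the other 2), 522 for leukocyte (102 and 93.9) and 978 for mesenchyme (623 and 829). The source of these Lama2 reads was not tested. The fall from double-negative cells was 24.8-fold in K5-only (log2 -4.63 ± 0.54; adjusted p = 8.49e-05), 27.3-fold in Kit-only (log2 -4.77 ± 0.54; adjusted p = 4.61e-05) and 52.4-fold in double-positive cells (log2 -5.71 ± 0.57; adjusted p = 1.51e-05). The calls for Nid1, Nid2 and Lama2 held in all 20 alternative fits of each comparison.

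Lamc3, a gamma chain of restricted expression (chromosome 2, 31887291-31946539, plus strand), was counted 107, 75 and 25 times in the double-negative libraries, or 7.02, 5.75 and 2.55 CPM. Over 3 libraries each, it was counted 1 time in double-positive, 5 times in Kit-only and 3 times in K5-only cells, all 5 in replicate 1 of Kit-only. Scaled to library size, double-negative cells held 157 times the level of double-positive (95% counting interval 27.9 to 6244), 28.1 times that of Kit-only (11.8 to 87.3) and 37.1 times that of K5-only cells (12.5 to 182). These intervals cover counting error only. Lamc3 passed the filter on low counts only through its double-negative libraries, so its tests are no independent evidence of a difference. The adjusted p was 0.0165 against K5-only, 0.0145 against Kit-only and 0.00373 against double-positive cells. The first was lost without replicate 1 of K5-only (0.0534) or replicate 1 (0.0800) or 2 (0.0574) of double-negative. The second was lost without replicate 2 of Kit-only (0.0580) or replicate 1 (0.0698) or 2 (0.0514) of double-negative. Its exons share 382 bases with the antisense predicted gene Gm13441, and those of Lama2 631 bases with Gm48084.

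Lamb1, the common beta chain (chromosome 12, 31265234-31329644, plus strand), had 694, 739 and 649 CPM in double-negative libraries. Its levels were 480, 373 and 215 CPM in K5-only, 63.4, 266 and 243 CPM in Kit-only, and 117, 284 and 256 CPM in double-positive libraries. Every double-negative library was above every other, and replicate 1 was the lowest of both Kit+ populations. Lamb1 was 3.63-fold lower in Kit-only (log2 -1.86 ± 0.46; adjusted p = 0.0113) and 3.17-fold lower in double-positive cells (log2 -1.66 ± 0.46; adjusted p = 0.0165). The latter missed the threshold without replicate 1 of double-positive (log2 -1.35; adjusted p = 0.0705). Against K5-only cells the log2 difference was -0.96 ± 0.45 and did not pass (adjusted p = 0.166), although the libraries did not overlap. It passed in the fit of these 2 populations alone (adjusted p = 0.0460), in the fit without replicate 1 of Kit-only (0.0447), and without the filter on low counts (5.42e-04).

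Lamb2, the beta chain of muscle, nerve and kidney membranes (chromosome 9, 108479736-108490530, plus strand), had 96.7, 66.3 and 53.2 CPM in double-negative libraries. It was at 39.9, 31.0 and 24.9 CPM in K5-only, 29.9, 37.8 and 21.4 CPM in Kit-only, and 28.2, 32.6 and 27.0 CPM in double-positive libraries. The 3 lower populations overlapped each other and none reached a double-negative library. It was 2.25-fold lower in K5-only (log2 -1.17 ± 0.28; adjusted p = 0.0123), 2.42-fold lower in Kit-only (log2 -1.28 ± 0.28; adjusted p = 0.00567) and 2.46-fold lower in double-positive cells (log2 -1.30 ± 0.28; adjusted p = 0.00431). Without replicate 1 of double-negative, the first of these was -0.92 with an adjusted p of 0.0757.

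Lama4, the alpha chain of blood vessels and mesenchymal tissues (chromosome 10, 38965515-39110188, plus strand), was less clear-cut. Its double-negative libraries had 410.1, 357 and 233 CPM, against 250.2, 160.3 and 63.7 CPM in K5-only, 71.3, 186 and 151 CPM in Kit-only, and 99.3, 182 and 180 CPM in double-positive libraries. Replicate 3 of double-negative lay within the K5-only range and above every Kit+ library. The log2 differences were -1.07 ± 0.44 (adjusted p = 0.116), -1.29 ± 0.45 (adjusted p = 0.0536) and -1.12 ± 0.44 (adjusted p = 0.0789) for K5-only, Kit-only and double-positive cells. Their 95% intervals left out 0, but none passed after adjustment over all genes. The difference in Kit-only cells passed when runs of consecutive library numbers were a replicate block (log2 -1.27; adjusted p = 0.0427), in DESeq2 (0.0150), with RLE factors (0.0492), in the fit of the 2 populations alone (0.0317), and without replicate 1 (0.0400) or 3 (0.0251) of K5-only. That in double-positive cells passed in DESeq2 (0.0343), in the 2 populations alone (0.0160), and without replicate 1 of Kit-only (0.0472) or replicate 3 of K5-only (0.0392). That in K5-only cells passed without their replicate 1 (log2 -1.58; adjusted p = 0.0481). Without the filter on low counts all 3 passed (adjusted p = 1.39e-04 in K5-only, 8.65e-06 in Kit-only and 1.80e-04 in double-positive cells).

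Lama5, the main alpha chain of epithelial basement membranes (chromosome 2, 180176373-180225859, minus strand), was the 1 gene of the 10 that passed the test as higher outside double-negative cells. Its levels were 349, 284 and 230 CPM in K5-only, 96.2, 263 and 196 CPM in Kit-only, and 198, 330 and 239 CPM in double-positive libraries, against 16.1, 72.5 and 80.7 CPM in double-negative libraries. All 9 libraries of the first 3 populations were above all 3 of the last. Lama5 was 5.11-fold higher in K5-only (log2 2.35 ± 0.49; adjusted p = 0.00583), 3.28-fold higher in Kit-only (log2 1.72 ± 0.48; adjusted p = 0.0218) and 4.54-fold higher in double-positive cells (log2 2.18 ± 0.49; adjusted p = 0.00544). The second was not called without replicate 2 of Kit-only (log2 1.36; adjusted p = 0.101) or in the fit of those 2 populations alone (log2 1.74; adjusted p = 0.0555). All 3 calls were lost when libraries were scaled to the general epithelial genes, described further on.

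Lamc1, the gamma chain of most laminins (chromosome 1, 153218922-153332786, minus strand), was the most abundant of the 10 genes per kb of exon outside double-negative cells, at 87.1 ± 20.5 CPM per kb in double-positive, 79.996 ± 34.0 in Kit-only and 82.7 ± 25.7 in K5-only cells (SD, n = 3). It had 527, 846 and 788 CPM in double-positive, 341, 867 and 777 CPM in Kit-only, 886, 704 and 462 CPM in K5-only and 567, 607 and 457 CPM in double-negative libraries. All 4 populations overlapped. The log2 differences from double-negative cells were 0.33 ± 0.32 in K5-only, 0.28 ± 0.32 in Kit-only and 0.41 ± 0.32 in double-positive cells, with adjusted p of 0.528, 0.584 and 0.389. The intervals of the fold ran from 0.776 to 2.04, from 0.751 to 1.97 and from 0.817 to 2.15.

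Lama1, the alpha chain of the earliest embryonic membranes (chromosome 17, 67697259-67822647, plus strand), had 8.49, 36.7 and 36.3 CPM in double-positive and 4.86, 29.3 and 36.4 CPM in Kit-only libraries. It had 24.0, 24.9 and 20.1 CPM in K5-only and 10.7, 13.9 and 30.9 CPM in double-negative libraries. The low value of each Kit+ population was replicate 1. No difference from double-negative cells passed (adjusted p from 0.560 to 0.778), and the folds had intervals of 0.483 to 3.22 in K5-only, 0.494 to 3.28 in Kit-only and 0.572 to 3.79 in double-positive cells. Its spread was 1.20 and 1.56 (SD of log2 CPM, n = 3) in double-positive and Kit-only cells.

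**Figure D2:**
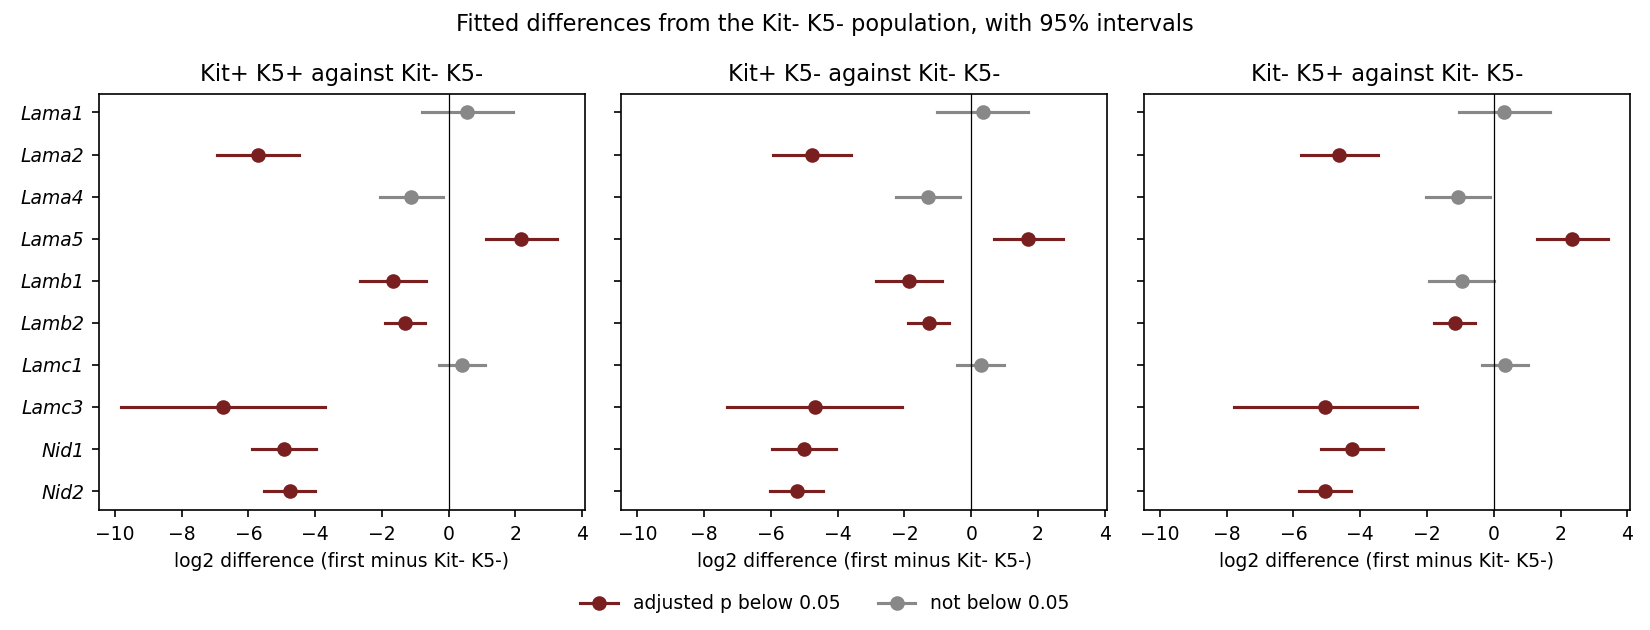
Fitted log2 difference of each gene from the double-negative (Kit- K5-) population, first population minus double-negative, with 95% intervals, 1 panel per population. Points in dark red had an adjusted p below 0.05; Lama5 lies to the right of 0 and Lama2, Lamc3, Nid1 and Nid2 beyond -4 in all 3 panels.

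Among the other 3 populations no gene of the 10 passed the test. The share of all genes called was 0% for K5 within Kit+ cells, 0.658% for Kit within K5+ cells and 2.67% between Kit-only and K5-only cells. With the replicate block 54 in place of 0 and 788 in place of 112 genes were called in the first 2 comparisons, none of them among the 10. DESeq2 called none of the 10 in these 3 comparisons either, and none had an unadjusted p below 0.05 in edgeR. Over all genes, the first comparison had 1161 at an unadjusted p below 0.05, and DESeq2 called 119. Nid1 differed by log2 0.09 ± 0.38 (adjusted p = 0.979) and Nid2 by 0.47 ± 0.32 (adjusted p = 0.811) with K5 in Kit+ cells. Lama2 was at 5.33 ± 0.789 CPM in double-positive and 11.3 ± 1.69 CPM in K5-only cells (SD, n = 3), and its libraries did not overlap, as for 20.5% of all genes tested. The log2 difference was -1.08 ± 0.51 with an adjusted p of 0.273. Without the filter on low counts it was -0.99 and passed (adjusted p = 0.0277). Lamb1 differed between Kit-only and K5-only cells by log2 -0.90 ± 0.45 (adjusted p = 0.306), and by -0.83 without that filter (adjusted p = 0.0212). For Lama5 the difference was -0.17 ± 0.47 for Kit within K5+ cells (adjusted p = 0.886) and -0.64 ± 0.47 between Kit-only and K5-only cells (adjusted p = 0.504). The interval of the first allowed a fold from 0.560 to 2.26 in the direction of the difference.

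For 3 genes the difference between K5+ and K5- cells was not the same in Kit+ and Kit- cells. The K5 difference in Kit+ cells minus that in Kit- cells was log2 5.53 ± 0.47 for Nid2 (adjusted p = 2.99e-05), 4.35 ± 0.56 for Nid1 (adjusted p = 4.91e-04) and 3.69 ± 0.71 for Lama2 (adjusted p = 0.00952). Of all genes tested, 4.02% were called in this contrast, and 2.81% in this direction. Of the 16 mesenchyme genes, 13 were called in the same direction. The contrast includes the double-negative libraries, so it is not independent of the comparisons with them. All 3 laminin and nidogen calls held in the 19 alternative fits. For Lama5 the value was -1.89 with an adjusted p of 0.142, and for Lamb2 1.15 with 0.130. Lama5 passed without the filter on low counts (-1.82; adjusted p = 1.96e-05) and Lamb2 with libraries scaled to the general epithelial genes (2.92; adjusted p = 8.75e-04). Both also passed with the replicate block, although the runs did not meet the criterion for pairing in this contrast. Lama4 was at 1.25 (adjusted p = 0.304) and Lamb1 at 1.16 (adjusted p = 0.353). Without the filter on low counts they passed, at 1.32 (adjusted p = 0.00572) and 1.23 (adjusted p = 0.00943). With epithelial scaling they passed as well, at 3.03 (adjusted p = 0.00585) and 2.89 (adjusted p = 0.00904).

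Because the 10 transcripts differ in length, levels between genes were compared as CPM per kb of exon. Lama5 made up 55.7 ± 5.88% of all alpha-chain transcripts per kb in double-positive, 51.0 ± 2.69% in Kit-only and 50.2 ± 8.36% in K5-only cells (SD, n = 3), and Lama4 31.2 ± 3.34%, 35.6 ± 0.328% and 23.5 ± 7.13%. In double-negative cells Lama4 held 52.0 ± 6.42%, Lama2 32.3 ± 4.06% and Lama5 10.1 ± 7.17%. The Lama5 share there ranged from 2.40% to 16.6% between libraries, all below the lowest share elsewhere, 41.7%. Lama2 was at 0.825 ± 0.120% in double-positive and at most 7.93% in any library outside double-negative cells. Lama3, the alpha chain left out of the 10 genes, peaked at 19.9 ± 5.32% in K5-only cells. Without division by length, the double-negative shares were 47.2 ± 4.87% for Lama4, 39.7 ± 4.12% for Lama2 and 8.79 ± 6.32% for Lama5. The alpha chains summed to 52.4 ± 8.54 CPM per kb in double-negative and 52.4 ± 19.7 in K5-only cells, so the populations with the same sum held different chains.

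**Figure D3:**
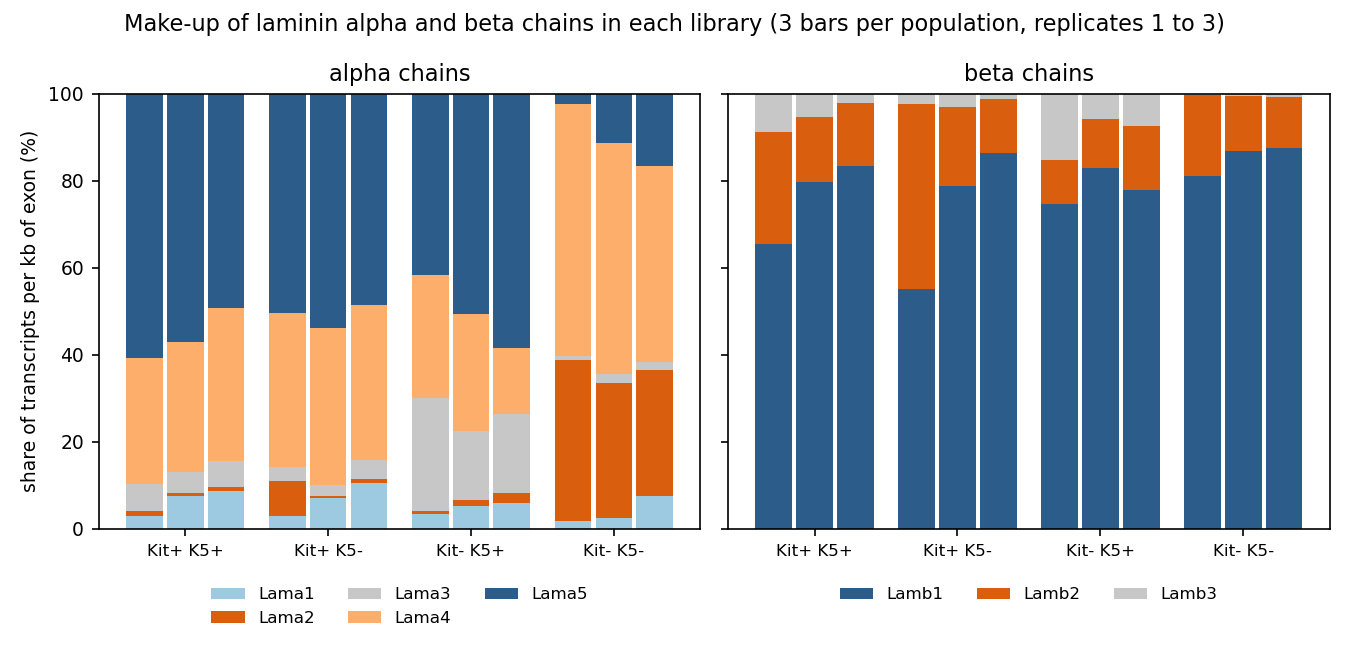
Share of each alpha and beta chain in the transcripts of its type, from CPM per kb of exon, with 1 bar per library and 3 bars per population. Lama5 takes the largest block of the alpha panel in 9 libraries and Lama4 in the 3 double-negative (Kit- K5-) libraries, while Lamb1 leads the beta panel in all 12.

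Beta chains changed less in make-up. Lamb1 held 73.5 ± 16.3% to 85.1 ± 3.47% of beta-chain transcripts per kb in the 4 populations. The balance between chain types did differ. Lamb1 stood at 1.07 ± 0.0967 times the level of Lamc1 per kb in double-negative cells, 0.427 ± 0.0344 in K5-only, 0.224 ± 0.0598 in Kit-only and 0.246 ± 0.0521 in double-positive cells. The nidogens together had 4.44 ± 0.658 times the level of Lamc1 per kb in double-negative cells, and 0.119 ± 0.0241 to 0.175 ± 0.0898 times in the others. Nid1 stood at 1.65 ± 0.159 times the level of Nid2 per kb in double-negative cells and 1.51 ± 0.504 to 2.90 ± 1.00 times elsewhere. With 3 libraries a population, an exact two-sided permutation test of such ratios cannot go below p = 0.1, so they are given as descriptions.

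The 10 genes were also set against the summed mesenchyme and epithelial lists in each library. Per 1000 CPM of mesenchyme genes, Nid1 had 70.2 ± 1.82 CPM in double-negative, 63.4 ± 23.5 in K5-only, 46.4 ± 16.1 in Kit-only and 49.9 ± 11.03 in double-positive cells. Nid2 had 31.9 ± 2.29, 16.4 ± 2.76, 18.6 ± 6.76 and 25.5 ± 3.99, and Lama2 15.4 ± 1.04, 10.8 ± 2.81, 11.4 ± 9.31 and 6.41 ± 0.809, in the same order. The double-negative mean was the highest for all 3 genes also on this scale, but by a far smaller factor than in CPM. Double-negative libraries overlapped K5-only ones for Nid1 (69.0 to 72.3 against 39.3 to 86.2). For Nid2 they overlapped double-positive ones (29.6 to 34.2 against 22.8 to 30.1). For Lama2 they overlapped Kit-only ones (14.3 to 16.3 against 5.92 to 22.2). Lama4 ran the other way, at 18.3 ± 0.516 in double-negative and 146 ± 86.1 to 185 ± 113 in the others, as did Lamb1 (39.9 ± 9.34 against 255 ± 77.5 to 331 ± 116) and Lamb2 (3.98 ± 0.565 against 30.1 ± 6.999 to 39.0 ± 18.9). Lamc1 had 30.8 ± 4.57 per 1000 CPM of mesenchyme genes in double-negative and 639 ± 183 to 893 ± 524 elsewhere. The ratio of these last 4 genes to the mesenchyme list was thus several times higher outside double-negative cells than in them. The list itself had a mean of 18108 CPM in double-negative cells and of 810 to 1068 CPM elsewhere. Any gene not raised in double-negative cells by as large a factor had to run this way. Per 1000 CPM of general epithelial genes, Lama5 had 100 ± 60.9 CPM in double-negative, 156 ± 26.4 in K5-only, 83.4 ± 44.6 in Kit-only and 110 ± 47.4 in double-positive cells. The double-negative libraries, at 30.7 to 144, overlapped each of the others. From which cells any of these reads came was not tested.

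Scaling each library to the general epithelial genes, in place of the TMM factors that take most genes as equal, moved the median of all genes tested to log2 -1.70, -2.02 and -2.15 in K5-only, Kit-only and double-positive against double-negative cells. On that scale Lama5 no longer passed, at 0.64, -0.26 and 0.14 (adjusted p = 0.283, 0.648 and 0.803), and was above the median of all genes in each. Lamc1 turned to -1.44, -1.73 and -1.66 (adjusted p = 0.0130, 0.00372 and 0.00451), and Lama1 to -1.36, -1.51 and -1.33 without passing (adjusted p = 0.0892, 0.0565 and 0.0834). Lama4 passed in all 3, at -2.87, -3.33 and -3.17 (adjusted p = 3.55e-04, 8.22e-05 and 1.10e-04), and Lamb1 also in K5-only cells, at -2.73 (adjusted p = 6.96e-04). Nid1, Nid2, Lama2, Lamc3 and Lamb2 were lower on both scales. Relative to the shifted median, Lamc1 and Lama1 lay slightly above it, as they did with TMM.

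**Figure D4:**
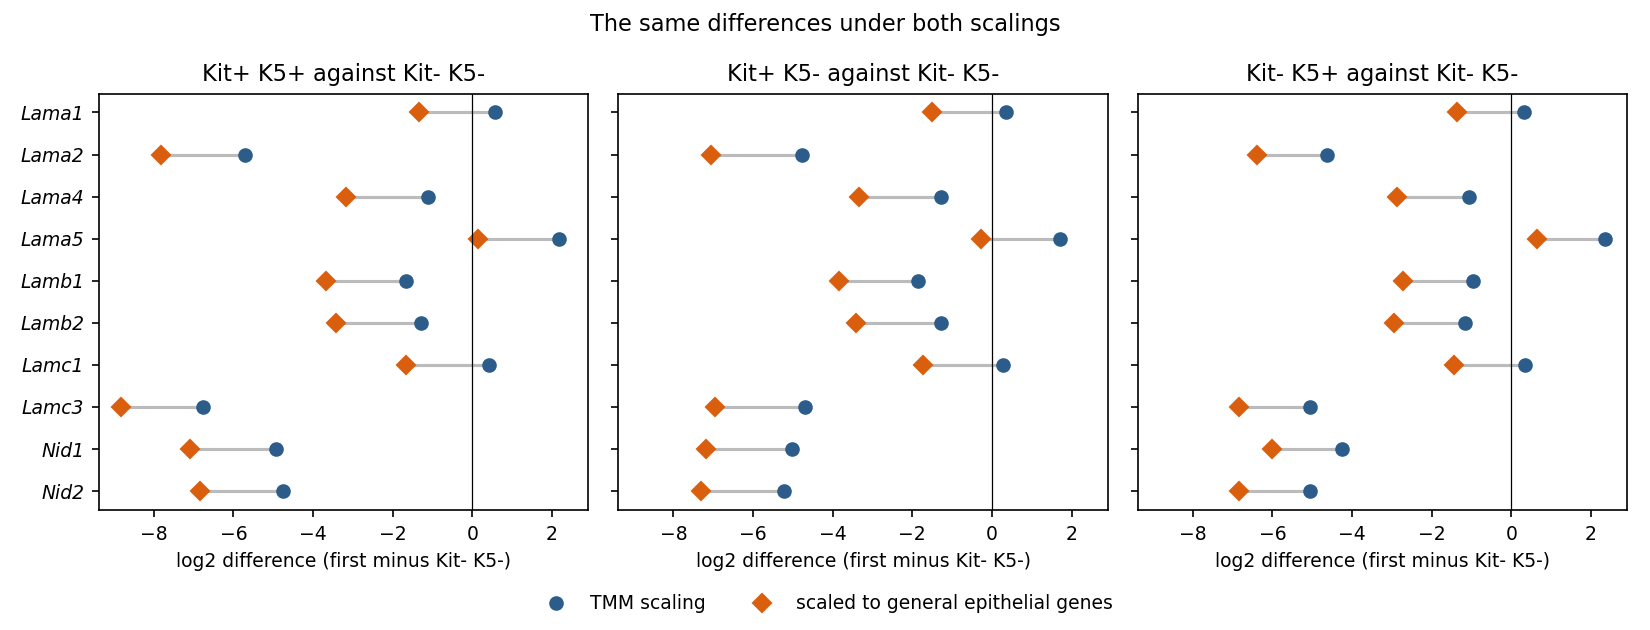
Log2 difference of each gene from the double-negative (Kit- K5-) population with TMM scaling (circles) and with libraries scaled to general epithelial genes (diamonds). All genes shift to the left by a similar amount; Lama1 and Lamc1 cross 0 in all 3 panels and Lama5 in the Kit-only (Kit+ K5-) panel.

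Other basement membrane genes were read in the same comparisons. Lama3 and Lamb3, laminin chains of epithelial attachment sites, both rose in K5-only against double-negative cells, by log2 3.69 and 3.39 (adjusted p = 1.73e-04 and 0.00449). In double-positive cells Lama3 rose by 1.42 (adjusted p = 0.0281), a call lost without replicate 2 (0.0743) or 3 (0.0733) of double-positive or replicate 1 (0.111) or 3 (0.0821) of double-negative. Lamb3 was at 1.61 there and did not pass (adjusted p = 0.0826; 0.0486 in DESeq2). In Kit-only cells their values were 0.29 and 0.22 (adjusted p = 0.683 and 0.848). Of 24 other basement membrane genes, 7 rose and 4 fell in K5-only cells, 1 rose and 7 fell in Kit-only cells, and 5 rose and 6 fell in double-positive cells. Over all genes tested, 7.38% rose and 9.1% fell in the first comparison, 10.2% and 11.1% in the second, and 12.2% and 14.5% in the third. The list's median log2 differences were 0.80, -0.26 and -0.10, where those of all genes were 0.04, 0.05 and -0.04. Egflam, which encodes the dystroglycan ligand pikachurin, fell in all 3, by 3.96, 3.36 and 3.97 on the log2 scale. Frem1, a basement membrane protein, fell by 3.77 in Kit-only and 4.49 in double-positive cells. In K5-only cells it was at -1.95 (adjusted p = 0.0507, with 0.0102 in DESeq2 and 0.0104 with the replicate block). Tinagl1, a secreted laminin-associated protein, rose by 2.76 in K5-only, 2.28 in Kit-only and 2.77 in double-positive cells, a call lost in all 3 with epithelial scaling (adjusted p = 0.0694, 0.649 and 0.228). Sparc, a collagen-binding matricellular protein, fell by 1.55 in K5-only, 2.30 in Kit-only and 2.43 in double-positive cells (adjusted p = 0.0473, 0.00575 and 0.00364). The first call was lost with upper-quartile factors (0.0572), without any 1 of the K5-only libraries (0.0903 to 0.132), without replicate 1 (0.147) or 2 (0.104) of double-negative, and without replicate 2 of Kit-only (0.0507) or 3 of double-positive (0.0563).

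Laminin receptors were counted against the same shares of all genes. Of 13 measured, 7 rose and 1 fell in K5-only, 4 rose and 2 fell in Kit-only, and 5 rose and 1 fell in double-positive cells, with median log2 differences of 1.53, 0.72 and 0.29 against 0.04, 0.05 and -0.04 over all genes. Itga6, the integrin alpha chain paired with Itgb4 in hemidesmosomes, rose by 2.80, 1.56 and 2.03 (adjusted p = 9.57e-05, 0.00354 and 5.58e-04). Itgb4 rose by 2.74, 1.45 and 1.88 (adjusted p = 1.30e-04, 0.00600 and 0.00104). Itga3, the integrin alpha chain for Lama5 and Lama3 laminins, rose by 2.12, 1.58 and 2.01 (adjusted p = 0.00389, 0.0147 and 0.00332). With epithelial scaling Itga6 turned to -0.48 in Kit-only and -0.067 in double-positive cells, Itga3 to -0.41 and -0.013, and Itgb4 to -0.58 and -0.23, and Itga3 was at 0.39 in K5-only cells and no longer passed (adjusted p = 0.484). Itga1, which encodes a receptor for collagen as well as laminin, fell by 3.64, 5.14 and 4.46 (adjusted p = 0.00136, 1.29e-04 and 2.42e-04). In the same comparisons 15, 16 and 16 of the 16 mesenchyme genes fell, and 8, 17 and 18 of the 20 general epithelial genes rose.

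Patterns over the 12 libraries were compared by the root mean square difference of log2 CPM, each gene centred on its own mean, among 9902 genes. Within the 10, the closest pairs were Lama2 with Nid1 (0.46), Lama4 with Lamb2 (0.48), Lama4 with Lamb1 (0.51) and Nid1 with Nid2 (0.53), and the most distant was Lama2 with Lama5 (3.43). Of all genes, Nid1 was nearest to Col6a3 (0.28), Dnm3os (0.33) and Prrx1 (0.33), and Nid2 to Nrp1 (0.26), Lpl (0.30) and Col5a2 (0.32). Lama2 was nearest to Gata6 (0.37), Lamc3 to Reck (0.44), Lama4 to Ets1 (0.28) and Lamb1 to Vcam1 (0.26). Lama5 was nearest to Itga3 (0.26), 1 of the laminin receptors above, then to Id4 (0.28) and Cdcp1 (0.29). Lamb2 was nearest to Cnpy4 (0.19), Lamc1 to Inf2 (0.16) and Lama1 to Sema6a (0.35). The median distance of the candidates ran from 0.60 for Lamc1 to 2.38 for Lama2. These distances are descriptions over libraries that share depth and sorting, and ranking over the 4 population means put other genes first for 9 of the 10.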

How the data were processed

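RNA of sorted cells was read as single-end reads of 50 nt. Per the submitters' processing notes, FastQC, STAR 2.4.2a, Picard 1.129 and featureCounts 1.4.6-p3 were used with build GRCm38.p3. No source used here names the annotation or the strand setting. The deposited values are raw counts per gene symbol, and the deposited matrix and the 12 single tables differed in 0 cells. From these counts, genes were filtered (filterByExpr, minimum count 10), scaled by TMM and tested with edgeR 4.0.16 (R 4.3.3) quasi-likelihood tests, with 1 coefficient per population over all 12 libraries, 8 residual degrees of freedom and Benjamini-Hochberg adjustment at 0.05 over 17030 genes. CPM are TMM-scaled. Exon lengths are unions from GENCODE annotation of GRCm38. Alternatives were DESeq2 1.42.0, other scalings, no filter, no mitochondrial genes, a replicate block, only the compared populations, and leaving out each library. Chain shares were also taken without division by length. The code was tested on simulated data.

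Libraries are numbered so that each run of 4 holds every population. Deviations within a run correlated at 0.0928 to 0.408, above 0.1 in all pairs except 1 of Kit-only with K5-only. The runs were therefore taken as pairing every comparison but that one and the dependence of the K5 difference on Kit. The tests reported above did not use this pairing, which entered only through the replicate block among the alternatives. Replicate libraries differed beyond counting noise. The genes and lists were chosen with earlier results of these data known. Named genes are the 10, the nearest genes by pattern, and part of the called genes with the largest differences, up to 4 per list. A gene described above from 1 comparison with double-negative cells is given in all 3. Smoc2 (log2 2.82), Bcam (2.49) and Col15a1 (-2.65) in K5-only cells also met this rule and were not described. So did Sdc4 (1.87) in Kit-only cells and Hmcn1 in Kit-only (-3.06) and double-positive cells (-2.88). Genes of the mesenchyme and general epithelial lists were read mainly as lists. 1 item is not reported here.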

Additional observations from a re-analysis of the deposited data

Results flagged for a closer look

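For 3 genes the difference between K5+ and K5- cells was itself different in Kit+ and Kit- cells, by a test of that difference. Nid2 differed by log2 0.47 in Kit+ and -5.06 in Kit- cells, a gap of 5.53 (edgeR, adjusted p = 2.99e-05). Nid1 differed by 0.09 and -4.25, a gap of 4.35 (adjusted p = 4.91e-04). Lama2 differed by -0.94 and -4.63, a gap of 3.69 (adjusted p = 0.00952). This contrast includes the double-negative libraries, so it is not independent of the comparisons with them. Of all genes tested, 2.81% were called in this direction, and of the 16 mesenchyme genes 13. Groups of 3 libraries were too small to be searched for single outlying libraries.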

How the results depend on the processing

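The numbers of genes called, as reported, were 0 for K5 in Kit+ cells, 2806 for K5 in Kit- cells, 112 for Kit in K5+ cells, 3624 for Kit in K5- cells, 454 between Kit-only and K5-only cells, 4540 between double-positive and double-negative cells, and 684 for the dependence of K5 on Kit. In that order, scaling to general epithelial genes gave 39, 11434, 184, 12620, 146, 13412 and 7766. For K5 in Kit+ cells, Kit in K5+ cells, Kit-only against K5-only, and the dependence on Kit, DESeq2 gave 119, 1039, 1349 and 1411, no filter 318, 1212, 1372 and 1960, and the replicate block 54, 788, 1328 and 1418. Kit in K5+ cells gave 72 and Kit-only against K5-only gave 60 with the compared populations alone. Leaving out 1 library gave 0 to 4, 1362 to 3157, 4 to 240, 2123 to 3754, 18 to 537, 2757 to 4753 and 370 to 729; the lowest came without replicate 1 of double-negative for K5 in Kit- cells, double-positive against double-negative and the dependence on Kit, replicate 1 of double-positive for Kit in K5+ cells, replicate 2 of Kit-only for Kit in K5- cells and replicate 1 of K5-only for Kit-only against K5-only. Of the 10 genes, the dependence on Kit called 3, but 6 with epithelial scaling, 6 without the filter and 5 with the replicate block, which added Lama5 (-2.06; adjusted p = 0.0405) and Lamb2 (1.17; adjusted p = 0.0347); without the filter 1 each was called for Kit in K5+ cells and between Kit-only and K5-only cells. Upper-quartile scaling moved the share of higher calls from 50.9% to 35.4% for Kit in K5+ cells and from 69.9% to 58.5% for the dependence on Kit, and turned the majority for K5 in Kit- cells (44.8% to 54.4%), Kit in K5- cells (47.7% to 53.0%) and Kit-only against K5-only (56.2% to 49.1%); epithelial scaling moved it from 44.8%, 47.7% and 45.7% to 1.09%, 0.309% and 0.201% in the 3 comparisons with double-negative cells and to 4.89%, 19.9% (from 56.2%) and 98.3% in Kit in K5+, between Kit-only and K5-only, and in the dependence on Kit.

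Signs turned with epithelial scaling for Lama1 (-1.36, -1.51, -1.33 and, for the dependence on Kit, 1.54), Lamc1 (-1.44, -1.73, -1.66 and 1.51), Lama5 in Kit-only cells (-0.26), Lama3 (-1.69), Lamb3 (-1.82), Itga6 (-0.48), Sdc4 (-0.15), Itgb4 (-0.58) and Itga3 (-0.41) in Kit-only cells, and Lama3 (-0.65), Lamb3 (-0.54), Itga6 (-0.067), Itgb4 (-0.23) and Itga3 (-0.013) in double-positive cells, all against double-negative. Leaving out 1 library spanned 0 for differences that had not passed: Lama1 for Kit in K5- cells (-0.084 to 0.93), Lama3 (-0.067 to 0.62) and Lamb3 (-0.64 to 0.56) in the same comparison, Lama1 in its dependence on Kit (-0.67 to 0.35), Lama2 (-1.32 to 0.29) and Nid1 (-0.20 to 0.61) for K5 in Kit+ cells, Lama5 for Kit in K5+ cells (-0.37 to 0.016) and Lamc1 in the dependence on Kit (-0.51 to 0.068). Apart from epithelial scaling, where the scaling genes themselves differ between populations, the cause of these changes was not tested. In the comparisons without double-negative cells, only some of the 10 genes were followed for turned signs, so the lists are not complete there. The replicate block changed no other call of the 10 genes than those of Lama4, Lama5 and Lamb2 given above. The common biological coefficient of variation was 0.437.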
